A study of Sus scrofa with 16 samples.

Results

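The 5 genes described here, NR1H3, ABCA1, ABCG1, APOE and LRP1, belong to cholesterol efflux under the liver X receptor (LXR). They were chosen by symbol from the 25880 genes of the deposited count table, and all 5 were found and passed the filter on low counts. The study listed these 5 genes, together with PTCH1, as a group drawn from its own comparison of the same pigs, so their directions here are not independent evidence. RNA of whole pituitaries was sequenced in 16 Złotnicka White gilts, a native breed kept for conservation, of which 8 had low feed conversion (LFC) and 8 had high feed conversion (HFC). Feed conversion is the amount of feed a pig needs to gain a unit of weight. The labels give day 180 for all pigs, but the study ended its test by weight and reports ages that varied. Its HFC pigs of this breed spent more days in the test than its LFC pigs, so age may differ between the groups. All pigs were unrelated females from different farms, kept alike at 1 test station and slaughtered at the same target weight, with no treatment. The groups differed in growth and fatness too. The study reports lower daily gain, thicker ham fat and a lower meat share of the carcass in its HFC pigs of this breed, though not every backfat measure differed. Such traits were not analysed here. The glands were homogenised whole, and the libraries did not keep the strand of the RNA.

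LXR alpha, the product of NR1H3, is a nuclear receptor that binds oxidised forms of cholesterol and acts as a pair with a retinoid X receptor (RXR). Among the genes it switches on are ABCA1 and ABCG1, membrane pumps that pass cholesterol out of the cell, and APOE, the apolipoprotein that carries lipid between cells. LRP1 is a large endocytic receptor that takes up lipoproteins bearing APOE, among many other ligands. In nervous tissue APOE is made mainly by glia, and in the pituitary the hormone-producing cells need cholesterol for the membranes of their secretory granules.

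The total count per pig ran from 6010629 to 11794256, with medians of 7803047 (LFC) and 9027332 (HFC). Expression is given as CPM, counts relative to the library size after scaling by edgeR's TMM method, and a positive log2 fold change means a higher value in the HFC pigs. Gene lengths in exons were not used here, so levels are compared between pigs and never between genes. The tissue label was checked against pituitary endocrine markers such as the hormone genes POMC, PRL and CGA, whose list summed to between 113796 and 242524 CPM in each pig. In whole tissue, fewer cells of a type and less RNA per cell cannot be told apart. The libraries also differed in how expression changed with gene length. The slope of log2 CPM on the log10 of the gene span in the genome, over 10890 genes, was -0.12 ± 0.15 among LFC pigs and -0.00 ± 0.13 among HFC pigs (SD, n = 8 each; exact two-sided permutation test, p = 0.126). The libraries of LFC replicates 4 and 6 and HFC replicate 5 had slopes from -0.346 to -0.281 and stood apart from the other 13. The group differences and the relations between the genes are therefore also given without them.

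LRP1 and the pumps ABCA1 and ABCG1 had higher means in the HFC pigs, and NR1H3 and APOE had lower means. None of the 5 passed an adjusted p of 0.05, and neither did any other gene (0.0% of 13621 genes tested; smallest adjusted p 0.372, quasi-likelihood test of edgeR with Benjamini-Hochberg adjustment). At unadjusted p ≤ 0.05, 3 of the 5 genes had higher and 0 had lower expression in the HFC group. Over all genes, 11.4% had such a p, 7.03% with higher and 4.41% with lower expression in the HFC group. DESeq2 with default settings called 0.216% of the 13446 genes to which it gave an adjusted p, and 0 of these 5, of which 3 had unadjusted p ≤ 0.05 in DESeq2 as well. The groups overlapped for each of the 5 genes, while 0.00734% of all genes, which is the Wnt signalling gene DVL2, had groups that did not overlap.

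**Figure D1:**
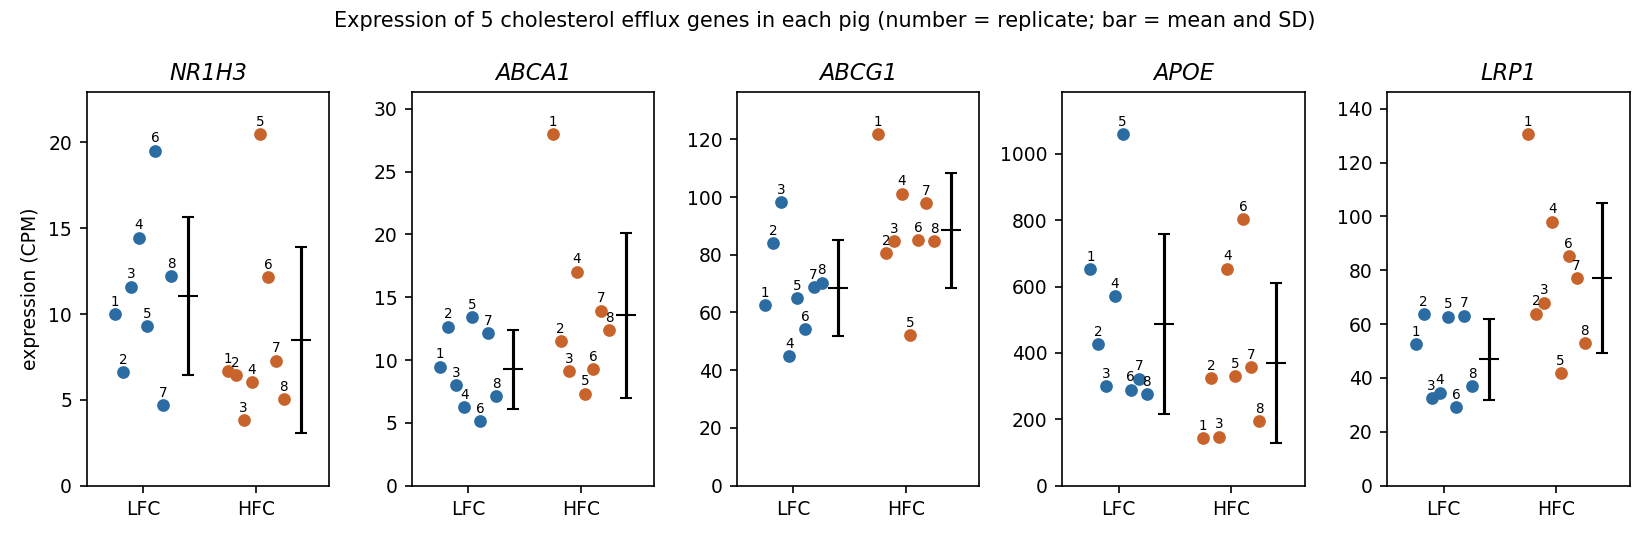
Expression of the 5 genes (y axis, CPM, starting at 0) in each of the 8 LFC and 8 HFC pigs. Each point is 1 pig with its replicate number, and the bar is the mean with 1 SD. For LRP1, 6 HFC pigs lie above the highest LFC pig, while the LFC and HFC pigs of NR1H3 and APOE overlap over most of their range.

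NR1H3, the receptor (ENSSSCG00000013241, Sscrofa11.1 chromosome 2, 15270789 to 15336804), ran in the LFC pigs from 4.70 CPM through a median of 10.8 to 19.5. In the HFC pigs it ran from 3.81 CPM through a median of 6.57 to 20.5. The highest value of all was that of HFC replicate 5, and 6 of the 8 HFC pigs lay below the LFC median. The means were 11.0 ± 4.62 CPM among LFC pigs and 8.50 ± 5.42 CPM among HFC pigs (SD, n = 8 each). The log2 fold change was -0.39 ± 0.32 (SE; unadjusted p = 0.238, adjusted p = 0.577, edgeR with Benjamini-Hochberg adjustment; exact two-sided permutation p = 0.217). An interval of 2 standard errors ran from -1.04 to 0.25, so neither direction could be told from the spread between pigs. Leaving out HFC replicate 5 gave -0.66 (unadjusted p = 0.0269), and leaving out LFC replicate 6 gave -0.21.

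The counts behind NR1H3 were low, from 35 to 114 per pig. Its deposited span also shares 55414 bases with MADD, which encodes an activator of Rab GTPases, and 2804 bases with ACP2, which encodes a lysosomal acid phosphatase. RefSeq places NR1H3 on the same assembly at 15315283 to 15336785, within the last part of the deposited span. Because the libraries did not keep the strand, reads of these overlapping genes could not be told apart by strand. MADD had 156 ± 26.6 CPM among LFC pigs and 190 ± 39.1 CPM among HFC pigs (SD, n = 8 each), and its log2 fold change was 0.29 in the direction opposite to that of NR1H3. The log2 fold change of ACP2 was 0.09. What share of the NR1H3 counts came from its neighbours was not tested.

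ABCA1, the pump that loads cholesterol onto lipid-poor apolipoproteins (ENSSSCG00000005423, chromosome 1, 246147515 to 246257380), ran in the LFC pigs from 5.14 CPM through a median of 8.73 to 13.4. In the HFC pigs it ran from 7.33 CPM through a median of 11.9 to 28.0. HFC replicate 1 stood highest, 7 of the 8 HFC pigs were above the LFC median and 3 were above every LFC pig. Mean expression was 9.27 ± 3.14 CPM among LFC pigs and 13.6 ± 6.58 CPM among HFC pigs (SD, n = 8 each). The log2 fold change was 0.55 ± 0.26 (SE; unadjusted p = 0.0484, adjusted p = 0.433, edgeR with Benjamini-Hochberg adjustment; exact two-sided permutation p = 0.0928). Without HFC replicate 1 it was 0.31 (unadjusted p = 0.174), and with all pigs the unadjusted p was 0.0535 with upper-quartile scaling and 0.0694 with scaling by total library size. Counts of ABCA1 ran from 30 to 251 per pig.

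ABCG1, the pump that passes cholesterol to mature high-density lipoprotein (ENSSSCG00000027745, chromosome 13, 205561927 to 205630797), ran in the LFC pigs from 44.7 CPM through a median of 66.8 to 98.3. The HFC pigs ran from 52.2 CPM through a median of 84.9 to 121.8. As for ABCA1, HFC replicate 1 was highest and 7 of the 8 HFC pigs were above the LFC median, with HFC replicate 5 the exception in both. The means were 68.5 ± 16.7 CPM among LFC pigs and 88.5 ± 19.9 CPM among HFC pigs (SD, n = 8 each). The log2 fold change was 0.37 ± 0.16 (SE; unadjusted p = 0.0315, adjusted p = 0.426, edgeR with Benjamini-Hochberg adjustment; exact two-sided permutation p = 0.0549). Without HFC replicate 1 it was 0.29 (unadjusted p = 0.0789). ABCG1 had between 278 and 1092 counts per pig.

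APOE, the lipid carrier (ENSSSCG00000003088, chromosome 6, 51372241 to 51375617), ran in the LFC pigs from 275 CPM through a median of 374 to 1059. In the HFC pigs it ran from 142 CPM through a median of 328 to 803. A single pig stood highest in each group, LFC replicate 5 and HFC replicate 6. The means were 487 ± 270.2 CPM among LFC pigs and 369 ± 240.5 CPM among HFC pigs (SD, n = 8 each), and 6 of the 8 HFC pigs were below the LFC median. The log2 fold change was -0.40 ± 0.37 (SE; unadjusted p = 0.293, adjusted p = 0.617, edgeR with Benjamini-Hochberg adjustment; exact two-sided permutation p = 0.242). It was -0.13 without LFC replicate 5 and -0.66 without HFC replicate 6, both single pigs that moved it by more than 1.5 times. With 1275 to 9013 counts per pig, the counts of APOE were high, and its interval of 2 standard errors was still -1.14 to 0.34.

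LRP1, the endocytic receptor (ENSSSCG00000000423, chromosome 5, 22436202 to 22518418), ran in the LFC pigs from 29.3 CPM through a median of 44.8 to 63.7. The HFC pigs ran from 41.7 CPM through a median of 72.6 to 131. Of the 8 HFC pigs, 6 were above every LFC pig, and 4 LFC pigs were below every HFC pig. Mean expression was 46.9 ± 15.1 CPM among LFC pigs and 77.2 ± 27.9 CPM among HFC pigs (SD, n = 8 each). The log2 fold change was 0.72 ± 0.22 (SE; unadjusted p = 0.00452, adjusted p = 0.410, edgeR with Benjamini-Hochberg adjustment; exact two-sided permutation p = 0.0126). By unadjusted p, LRP1 ranked 147 among the 13621 genes tested. With each pig left out in turn its log2 fold change stayed between 0.57 and 0.83, with unadjusted p-values from 0.00132 to 0.0132.

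The 5 genes varied more between pigs of a group than most genes of their level. For APOE the SD of log2(CPM + 1) within groups was 0.82, larger than in 98.3% of the 516 genes that lay at most 1 log2 unit from its level, whose median was 0.26. For LRP1 it was 0.49 and larger than in 95.3% of such genes, and for NR1H3 0.63 and larger than in 93.2%. The SDs of ABCA1 and ABCG1 were 0.51 and 0.35, larger than in 89.3% and 81.5%. These are descriptions of the libraries and were not tested.

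Across the 16 pigs, LRP1, ABCA1 and ABCG1 had positive correlations with each other and negative ones with NR1H3, the receptor that acts on both pumps. APOE passed the test with none of the other 4 genes. Of 10 pairs of the 5 genes, 6 had an adjusted p of at most 0.05 for Pearson's r of log2(CPM + 1), 3 of them positive and 3 negative (permutation test with 100000 resamples, Benjamini-Hochberg adjustment over 35 relations). After centring each gene within groups 3 pairs passed, and without the 3 pigs of lowest slope 1 pair passed. All of these values share libraries and their scaling, and correlations of the size of the negative pairs were common. Of all tested genes, between 14.3% and 16.6% had an r with NR1H3 at or below that of ABCA1, LRP1 or ABCG1. An r with ABCA1 as high as that of LRP1 was reached by 0.0587% of genes and one as high as that of ABCG1 by 3.8%, and 7.73% of genes had an r with LRP1 as high as that of ABCG1.

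The closest pair was ABCA1 and LRP1, with r = 0.89 (permutation p = 1e-05, the smallest that the resamples can give; adjusted p = 0.000175) and rho = 0.78 (permutation p = 0.00077, adjusted p = 0.00898). It held in the LFC pigs (r = 0.95, n = 8, exact p = 0.00102) and in the HFC pigs (r = 0.82, n = 8, exact p = 0.0145), and r was 0.79 with the 2 pigs left out whose ABCA1 lay farthest from its median. ABCA1 and ABCG1 had r = 0.75 (permutation p = 0.0009, adjusted p = 0.00394) and rho = 0.61 (permutation p = 0.0140, adjusted p = 0.0441), with r of 0.60 without the 2 farthest pigs. Within the groups r of this pair was 0.45 in the LFC pigs (n = 8, exact p = 0.266) and 0.87 in the HFC pigs (n = 8, exact p = 0.0099), and the difference between the groups was not tested. ABCG1 and LRP1 had r = 0.70 (permutation p = 0.0028, adjusted p = 0.00891) and rho = 0.68 (permutation p = 0.00459, adjusted p = 0.0229). Without the 2 farthest pigs r was 0.64, and it was 0.23 in the LFC pigs (n = 8, exact p = 0.581) and 0.90 in the HFC pigs (n = 8, exact p = 0.00313).

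The 3 negative pairs all held NR1H3. Its r was -0.65 with ABCA1 (permutation p = 0.00526, adjusted p = 0.0153), with rho = -0.63 (permutation p = 0.0101, adjusted p = 0.0441). With LRP1 its r was -0.63 (permutation p = 0.00925, adjusted p = 0.0249), with rho = -0.60 (permutation p = 0.0164, adjusted p = 0.0441). With ABCG1 r was -0.61 (permutation p = 0.0120, adjusted p = 0.0301), and rho of -0.49 did not pass (permutation p = 0.0532, adjusted p = 0.124). With the 2 pigs left out whose NR1H3 lay farthest from its median, these r values were -0.51, -0.50 and -0.42. In the LFC pigs NR1H3 had r = -0.88 with ABCA1 (n = 8, exact p = 0.00283) and -0.87 with LRP1 (n = 8, exact p = 0.00141). In the HFC pigs the same pairs had r = -0.41 (n = 8, exact p = 0.315) and -0.34 (n = 8, exact p = 0.411). NR1H3 and ABCG1 had r = -0.45 in the LFC pigs (n = 8, exact p = 0.262) and -0.64 in the HFC pigs (n = 8, exact p = 0.105), and differences between the groups were not tested.

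The 4 pairs with APOE had r between -0.33 and 0.32, and none passed. The r of APOE was 0.32 with NR1H3 (permutation p = 0.231, adjusted p = 0.367; rho = 0.23, permutation p = 0.394, adjusted p = 0.583), and r was 0.53 without the 2 farthest pigs. It was -0.33 with ABCG1 (permutation p = 0.209, adjusted p = 0.348; rho = -0.22, permutation p = 0.415, adjusted p = 0.583). With ABCA1 and LRP1 it was -0.12 and -0.01 (permutation p = 0.670 and 0.978).

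**Figure D2:**
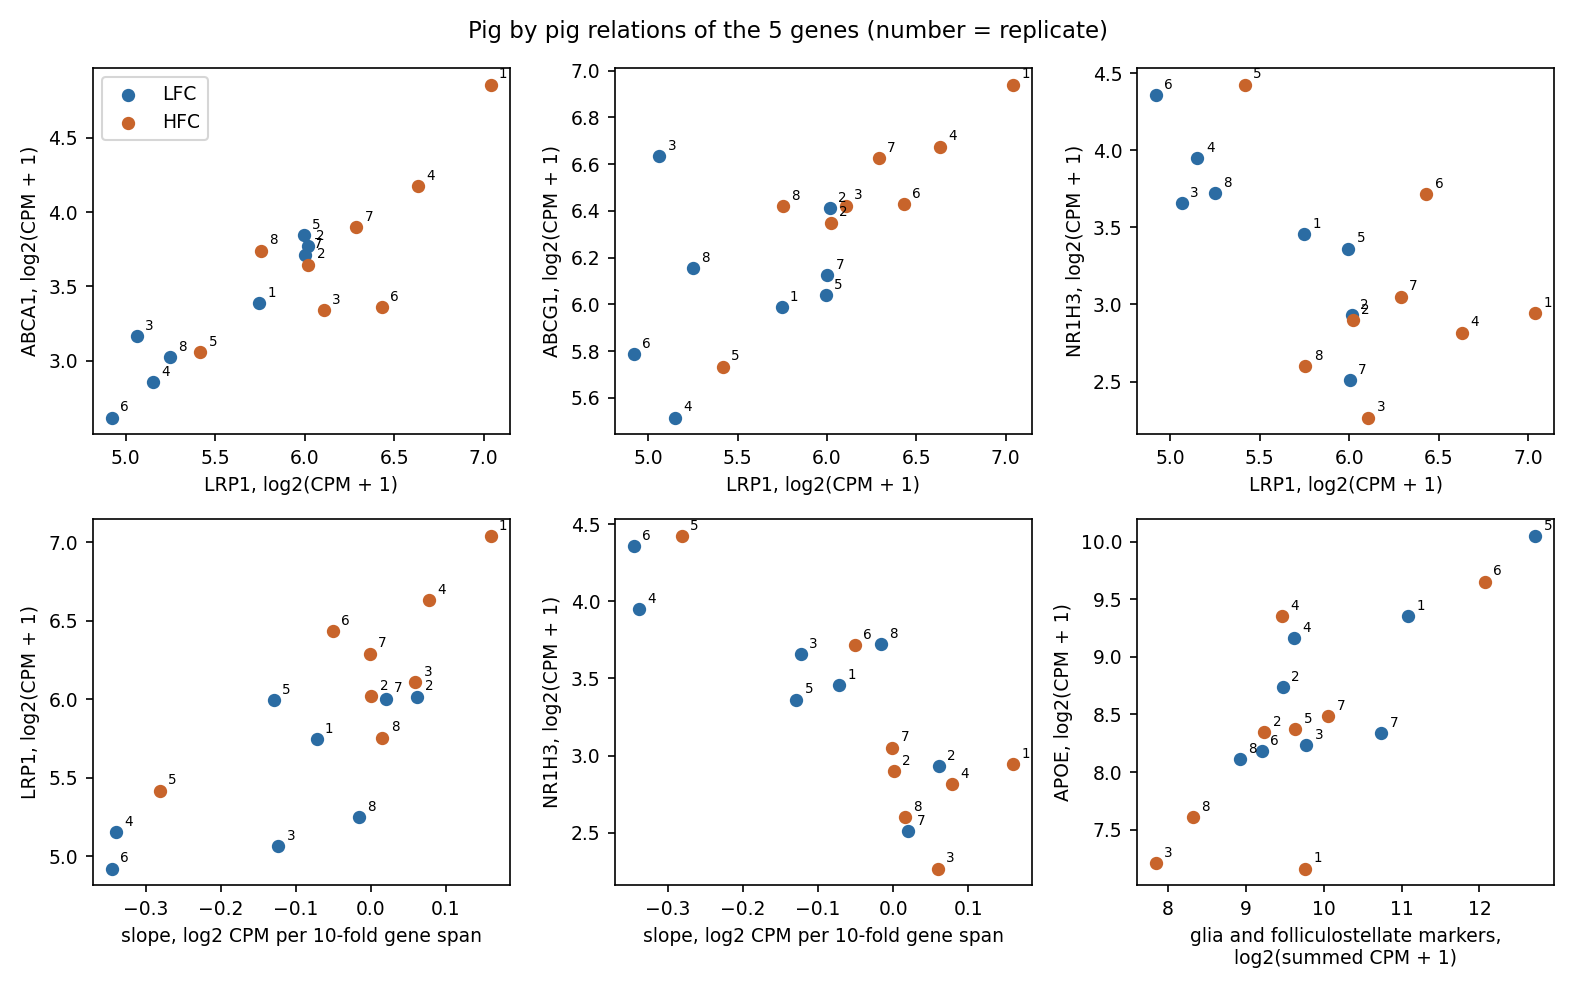
Each panel plots 2 measures over the 16 pigs, with LFC pigs in blue, HFC pigs in orange and the replicate number beside each point. The upper row has LRP1 on the x axis (log2(CPM + 1)) against ABCA1, ABCG1 and NR1H3, with r of 0.89, 0.70 and -0.63. The lower row has LRP1 and NR1H3 against the gene span slope of the library (r = 0.78 and -0.84) and APOE against the summed glia and folliculostellate markers (r = 0.77).

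NR1H3, ABCA1, ABCG1 and LRP1 also followed the gene span slope of the library. The slope was computed from the expression of genes in these same libraries, so the 2 measures are not independent. The deposited spans of ABCA1, LRP1, ABCG1 and NR1H3 were 109866, 82217, 68871 and 66016 bases, and that of APOE was 3377. How many other genes follow the slope as closely was not counted. The r with the slope was -0.84 for NR1H3 (permutation p = 1e-05, the smallest possible; adjusted p = 0.000175; rho = -0.82, permutation p = 0.00018, adjusted p = 0.0063). It was 0.84 for ABCG1 (adjusted permutation p = 0.000467; rho = 0.70, adjusted p = 0.0204), 0.79 for ABCA1 (adjusted permutation p = 0.00154; rho = 0.71, adjusted p = 0.0173) and 0.78 for LRP1 (adjusted permutation p = 0.00187; rho = 0.77, adjusted p = 0.00898). With the 2 pigs farthest from the median slope left out, LFC replicates 4 and 6, these r values were between 0.67 and 0.79 in size. HFC replicate 5, the next lowest in slope, stayed in, and the r values without all 3 pigs are not reported here. APOE had r = -0.30 with the slope (permutation p = 0.251, adjusted p = 0.382). HFC replicate 5, which had the highest NR1H3 and the lowest ABCG1, ABCA1 and LRP1 of its group, was also the HFC pig of lowest slope. LFC replicates 4 and 6, the 2 LFC pigs of lowest slope, had the 2 highest NR1H3 and the 2 lowest ABCA1 and ABCG1 values of their group.

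With the slope as a covariate in the edgeR fit, the log2 fold change of LRP1 was 0.40 ± 0.17 (SE; unadjusted p = 0.0328), against 0.72 without it. That of ABCA1 was 0.15 ± 0.20 (SE; unadjusted p = 0.474) and that of ABCG1 was 0.13 ± 0.12 (SE; unadjusted p = 0.281). NR1H3 was at 0.01 ± 0.22 (SE), and APOE was at -0.29 ± 0.41 (SE). With 1 surrogate variable estimated from the data in place of the slope, LRP1 was at 0.33 (unadjusted p = 0.0662), ABCA1 at 0.09, ABCG1 at 0.08, NR1H3 at 0.14 and APOE at -0.39. When the 3 pigs of lowest slope were left out and no covariate was used, the values were 0.67 for LRP1 (unadjusted p = 0.00698), 0.33 for ABCG1 (unadjusted p = 0.0163), 0.48 for ABCA1 (unadjusted p = 0.0855), -0.41 for NR1H3 and -0.42 for APOE. In those 13 pigs, 1 of the 10 pairs of genes passed an adjusted p of 0.05, that of ABCA1 and LRP1 (r = 0.82, adjusted permutation p = 0.0166). The part of RNA quality or library preparation in these relations was not tested.

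**Figure D3:**
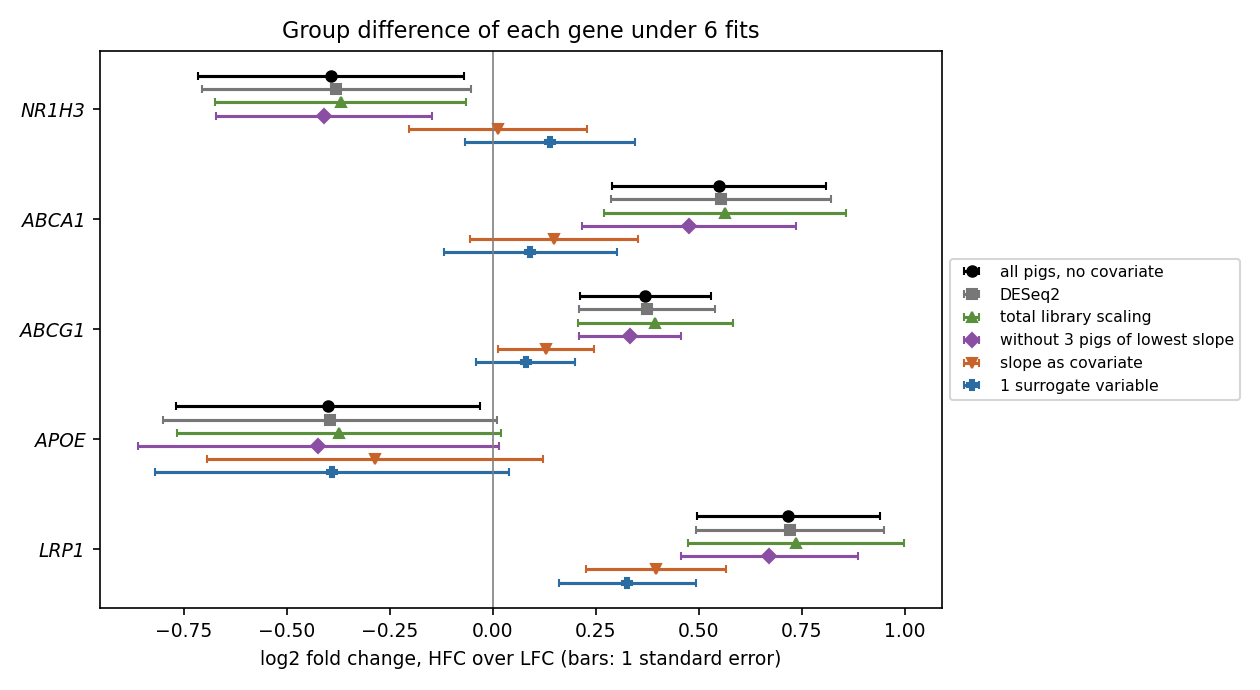
Log2 fold change of each gene, HFC over LFC (x axis), under 6 fits, with bars of 1 standard error. LRP1 is above 0 in all 6, from 0.33 to 0.74, while the values of ABCA1 and ABCG1 lie at 0.15 or less with the slope or a surrogate variable and NR1H3 moves from below 0 to 0.01 and 0.14.

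APOE followed the markers of glia and of folliculostellate cells, the supporting cells of the gland, a list that holds the astrocyte gene GFAP and the myelin gene MBP. Its r with their summed expression was 0.77 (permutation p = 0.00041, adjusted p = 0.00205) and rho was 0.62 (permutation p = 0.0116, adjusted p = 0.0441). In the LFC pigs r was 0.81 (n = 8, exact p = 0.0130) and in the HFC pigs 0.72 (n = 8, exact p = 0.0355), and without the 2 farthest pigs it was 0.57. LFC replicate 5 and HFC replicate 6, the pigs of highest APOE, had the highest marker sums of their groups, 6719 and 4306 CPM, against group medians of 833 and 750 CPM. Without both pigs the log2 fold change of APOE was -0.40, as with them, and that of ABCA1 was 0.71 (unadjusted p = 0.0189). Of the 5 genes, 2 had unadjusted p ≤ 0.05 in that edgeR fit, against 3 with all pigs. Of the 12 glia markers tested, 9 were lower in the HFC pigs and 0 were at unadjusted p ≤ 0.05 in edgeR, against 5 of the listed genes in DESeq2. Without both pigs 6 of 11 glia markers and 6 of 15 macrophage markers had unadjusted p ≤ 0.05, all of them lower in the HFC group, as were 4.05% of the 13588 genes tested in that fit. MOG, MAG, FABP7 and RAX of this list were at 0 in some pigs.

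The sum of the macrophage markers, a list with CD68, CD163 and the complement genes C1QA, C1QB and C1QC, ran from 306 through a median of 368 to 511 CPM in the LFC pigs and from 167 through 303 to 601 CPM in the HFC pigs. APOE had r = 0.59 with it (permutation p = 0.0149, adjusted p = 0.0348), while rho was 0.39 (permutation p = 0.136, adjusted p = 0.250) and r without the 2 farthest pigs was 0.37. Of the 15 macrophage markers tested, 14 had lower values in the HFC pigs. Against 4.41% of all genes, 1 of the 15, the scavenger receptor MSR1, was lower at unadjusted p ≤ 0.05 (log2 fold change -0.75). That count was 5 with voom, 4 with the replicate block, 0 without HFC replicate 3, 7 or 8 and 8 without HFC replicate 6. The fibroblast and mural sum ran from 288 through 395 to 558 CPM in the LFC pigs and from 319 through 496 to 1011 CPM in the HFC pigs. ABCA1 had r = 0.82 with it (adjusted permutation p = 0.00154), ABCG1 0.72 (adjusted permutation p = 0.00535) and LRP1 0.72 (adjusted permutation p = 0.00535), and without the 2 farthest pigs these were 0.62, 0.48 and 0.50. The corresponding rho values were 0.72, 0.60 and 0.62 (adjusted permutation p = 0.0173, 0.0441 and 0.0441). With the endothelial sum, which ran from 274 to 418 CPM in the LFC pigs and from 238 to 560 CPM in the HFC pigs, none of the 5 genes passed. In all, 5 of 20 relations of the genes with these 4 marker sums passed, and no marker found was at 0 in every pig. The part of cell composition in the group differences was not tested.

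Among the receptor partners, NR1H2, which encodes LXR beta, had 64.3 ± 5.80 CPM among LFC pigs and 61.6 ± 3.18 CPM among HFC pigs (SD, n = 8 each), and its log2 fold change was -0.06 ± 0.07 (SE). RXRA, the RXR partner of LXR, was at 0.06 ± 0.21 (SE). Of 13 partners and cofactors tested of 14 listed, 9 were higher in the HFC pigs, and 6 of them had unadjusted p ≤ 0.05. Over all genes tested, 7.03% were higher in the HFC group at such a p. The median log2 fold change of the list was 0.24, against -0.01 over all genes tested. Among the 6 were the corepressor NCOR1 (0.46), which holds unliganded nuclear receptors silent, the coactivators NCOA2 (0.43), NCOA3 (0.39) and NCOA6 (0.47), and the Mediator subunit MED1 (0.24). With scaling by total library size 3 genes of the list had unadjusted p ≤ 0.05, and with the slope as a covariate 1 gene had, on the LFC side, with a list median of 0.10.

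Of 16 other LXR target genes tested, 3 had unadjusted p ≤ 0.05, against 11.4% of all genes, and all 3 were higher in the HFC pigs. SREBF1, the transcription factor of fatty acid synthesis, had 43.2 ± 8.77 CPM among LFC pigs and 63.4 ± 17.3 CPM among HFC pigs (SD, n = 8 each), and its log2 fold change was 0.55 ± 0.17 (SE; unadjusted p = 0.00442). FASN, the fatty acid synthase, had 132 ± 49.9 CPM among LFC pigs and 196 ± 46.1 CPM among HFC pigs (SD, n = 8 each), and its log2 fold change was 0.56 (unadjusted p = 0.0193). ACACA, which makes the malonyl units that FASN uses, had a log2 fold change of 0.37 (unadjusted p = 0.0394). SCD, the stearoyl-CoA desaturase, also of fatty acid synthesis, was at 0.31 (unadjusted p = 0.245). The list's median was 0.10, and 11 of the 16 were higher in the HFC pigs. MYLIP, an LXR target that marks lipoprotein receptors for degradation, was at 0.13 (unadjusted p = 0.197). NR0B2 of the cofactors and ABCG5, ABCG8 and CYP7A1 of the targets did not pass the filter on low counts.

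In the wider set of sterol transport genes, 11 of 25 tested were higher in the HFC pigs and the median log2 fold change was -0.04. Of the 25, 5 had unadjusted p ≤ 0.05, against 11.4% of all genes. At unadjusted p ≤ 0.05 were OSBP (0.33), which exchanges sterol between membranes, ABCA2 (0.42), a lipid pump of endosomes, PTCH1 (0.39), the Hedgehog receptor, and GRAMD1B (0.33), which moves cholesterol from the plasma membrane inwards. In the other direction was CH25H, the enzyme that makes 25-hydroxycholesterol, a ligand of LXR, from cholesterol. CH25H had 6.72 ± 2.11 CPM among LFC pigs and 4.00 ± 1.28 CPM among HFC pigs (SD, n = 8 each), and its log2 fold change was -0.75 ± 0.23 (SE; unadjusted p = 0.00397). In 0 of the 8 HFC pigs was it above the LFC median, but its counts were low, from 22 to 79 per pig. SCARB1, the receptor of high-density lipoprotein, and NPC1, which lets cholesterol out of lysosomes, were at 0.11 and -0.06.

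Of 24 APOE receptors and LRP1 partners, 18 were higher in the HFC pigs, with a median log2 fold change of 0.13, against 6526 of all 13621 genes. Of the 24, 3 had unadjusted p ≤ 0.05, a share near the 11.4% of all genes. LRP6, a coreceptor of Wnt signalling, had a log2 fold change of 0.33. LRP1B, a close relative of LRP1, had 1.87 ± 0.876 CPM among LFC pigs and 3.23 ± 1.34 CPM among HFC pigs (SD, n = 8 each), and its log2 fold change was 0.78. All 8 HFC pigs lay above the LFC median of LRP1B, but its counts were low, from 4 to 56 per pig. GULP1, an adaptor that binds the tail of LRP1, was lower in the HFC group (log2 fold change -0.30). None of the genes named in these lists passed an adjusted p of 0.05, the smallest being 0.410 (edgeR with Benjamini-Hochberg adjustment).

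**Figure D4:**
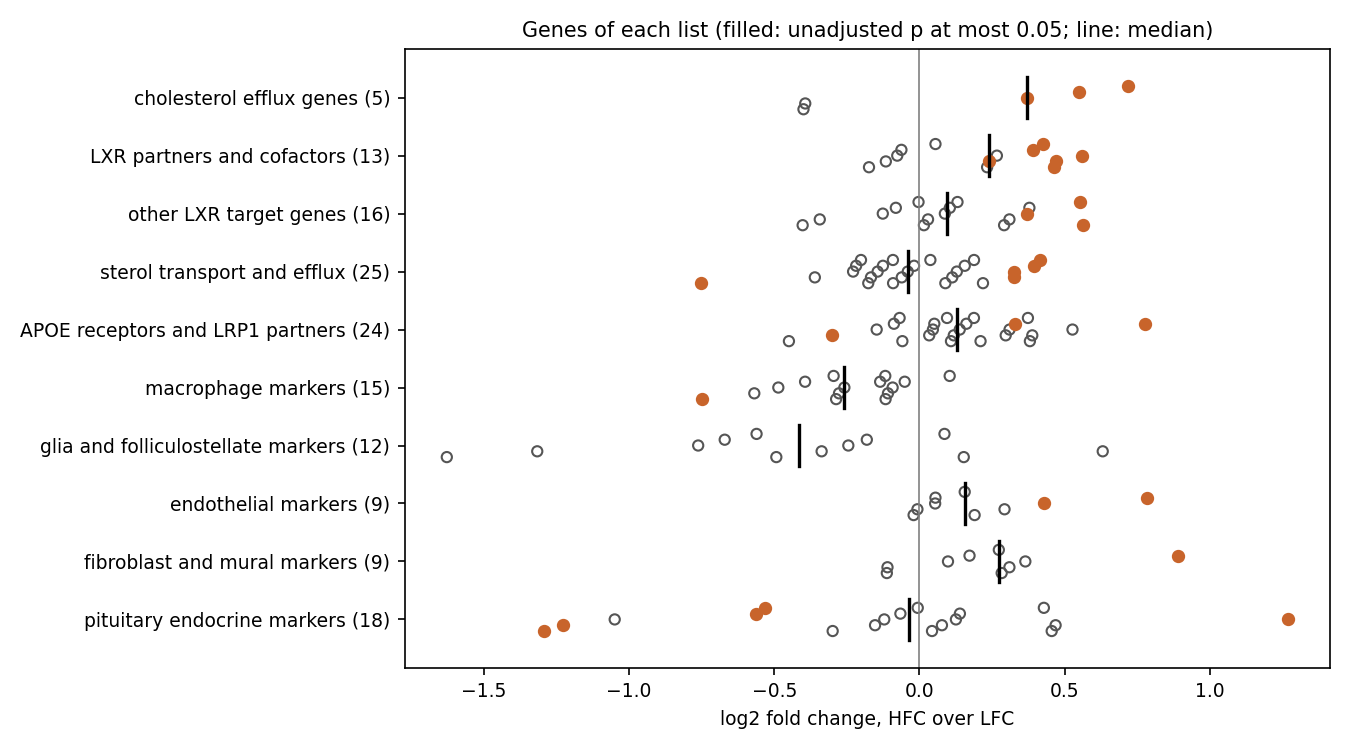
Log2 fold change, HFC over LFC (x axis), of every tested gene of each list, with the number tested in brackets. Filled points had unadjusted p ≤ 0.05 and the black line is the list's median, which is 0.37 for the 5 cholesterol efflux genes, 0.24 for LXR partners and cofactors, -0.04 for sterol transport and -0.41 for glia markers.

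The genes whose pattern over the 16 pigs was most like that of a member were looked up among all tested genes with a symbol, by Pearson's r of log2(CPM + 1). They were CUEDC2, PPIA and C1orf52 for NR1H3, each with r = 0.92. For ABCA1 they were HUNK (0.93), MAP3K9 (0.91) and ZFHX4 (0.90), and for ABCG1 GCC1 (0.92), HIVEP1 (0.91) and PJA1 (0.90). LRP1 was most like LAMA5 (0.94), FRAS1 (0.93) and HSPG2 (0.93). APOE had fewer close matches, with EBF4 at 0.86, CCM2 at 0.85 and VSIR at 0.82. An r of at least 0.8 was reached by 11 genes with APOE, against 372 with NR1H3, 328 with LRP1, 285 with ABCG1 and 163 with ABCA1. An r of -0.8 or lower was more frequent for NR1H3 (677 genes), ABCG1 (701), LRP1 (555) and ABCA1 (375), and less frequent for APOE (9). All of these values came from the same libraries.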

How the data were processed

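The authors deposited unnormalized counts of reads per Ensembl gene of Sscrofa11.1; single reads were trimmed and aligned, with STAR through RSEM and Bowtie 2 both named, and the counting step is not given in the sources used here. A second deposited table supplied symbols and positions only. Its group means, ratios and p-values, which are the authors' own comparison, were not used. Gene symbols came from that table (9550 genes) or from tables of gene names and positions (5875 and 309). Groups were taken from the labels, which hold low and high FCR under a tag named shear force, read here as feed conversion. No pair of libraries in a group were near copies (chi-square per degree of freedom 11.4 to 85.9).

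In R 4.3.3, edgeR 4.0.16 (TMM, expression filter, 13621 genes, quasi-likelihood F test, Benjamini-Hochberg over all genes) was used; calls needed adjusted p ≤ 0.05 and a fold change ≥ 1.3. Single genes were compared by exact two-sided permutation on log2(CPM + 1), over 12870 arrangements of 8 and 8 pigs, with a smallest p of 0.000155. Correlations had 100000 resamples, exact within groups, with adjustment over all 35 relations, a wider family than the 10 pairs of members. Genes of the lists were named when their unadjusted p was ≤ 0.05, with genes such as NR1H2, RXRA, MYLIP, SREBF1, SCARB1, NPC1 and PTCH1 in addition, and 3 genes most alike per member; DVL2, MADD, ACP2 and SCD were named after their values were seen. Some genes that this rule names are not reported here. Alternatives were DESeq2 1.42.0, limma 3.58.1 voom, other scalings and filters, a replicate block, sva 3.50.0, the slope and each pig left out. Fits were tested on simulated data. The members and lists were chosen with earlier results of these data known.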

Additional observations from a re-analysis of the deposited data

How the results depend on the processing

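No gene was called in edgeR or voom under any scaling, filter, covariate or looser threshold tried, nor with any pig left out, while DESeq2 called 29 genes, 19 of them higher in the HFC pigs. At unadjusted p ≤ 0.05 there were 1559 genes, 61.4% of them higher in the HFC pigs, against 1389 and 46.0% with scaling by total library size alone. That count was 2540 with voom, 625 with 1 surrogate variable, 654 with the slope as covariate, 1971 without the 3 pigs of lowest slope (an alternative chosen after seeing the data, as was leaving out the 2 pigs of highest glia markers), and between 989 (without HFC replicate 4) and 3514 (without HFC replicate 5) with each pig left out. Of the list counts at unadjusted p ≤ 0.05, those of LXR partners, other LXR targets, sterol transport, and APOE receptors and LRP1 partners were 6, 3, 5 and 3 as reported, 1, 0, 2 and 0 with 1 surrogate variable and 1, 2, 2 and 0 with the slope as covariate. With each pig left out the count of LXR partners ran from 3 (without LFC replicate 4, HFC replicate 3 or HFC replicate 4) to 8 (without LFC replicate 2 or HFC replicate 5), that of sterol transport from 1 (without LFC replicate 4) to 9 (without HFC replicate 5) and that of APOE receptors and LRP1 partners from 1 (without HFC replicate 1 or 2) to 6 (without HFC replicate 5). LRP1, ABCA1, ABCG1 and APOE kept their direction under every alternative, with log2 fold changes of 0.33 to 0.83, 0.09 to 0.71, 0.08 to 0.48 and -0.66 to -0.13. NR1H3 reversed to 0.14 with 1 surrogate variable and to 0.013 with the slope as covariate, and the cause was not tested. The number of pairs of the 5 genes past an adjusted p of 0.05 fell from 6 to 3 with CPM by total library size, to 3 after centring each gene within groups and to 1 without the 3 pigs of lowest slope, and was between 3 (without LFC replicate 6) and 6 with each pig left out. The r of ABCA1 with APOE turned to 0.039 and 0.021 with total library size and centring and ran from -0.22 to 0.24 with each pig left out. That of APOE with LRP1 turned to 0.14 and 0.24, to 0.0065 without the 3 pigs of lowest slope, and ran from -0.11 to 0.29. The labels give both groups replicate numbers 1 to 8, but the pigs were unrelated. Deviations of pigs with the same number correlated between -0.34 and 0.37, with 0 of 8 LFC pigs most like their own number. Whether the numbers mark pairs was not tested. With the replicate block there were 1404 genes at unadjusted p ≤ 0.05 and 0 called, and LRP1 was at 0.71 (unadjusted p = 0.00944), ABCG1 at 0.37 (0.0476), ABCA1 at 0.51 (0.0654), NR1H3 at -0.47 and APOE at -0.50. NR1H3 and ABCA1 had as few as 35 and 30 counts in a pig, and the part of depth in their spread was not tested. Intervals here cover the spread between pigs, which includes technical spread.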

Other observations

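Markers of the vessel wall and of the hormone-producing cells add to the cell type values above. Of 9 endothelial markers tested, 7 were higher in the HFC pigs, and VWF, the clotting factor of the vessel wall, and CDH5, the cadherin of endothelial junctions, had unadjusted p ≤ 0.05 (log2 fold changes 0.78 and 0.43). Of 9 fibroblast and mural markers, 7 were higher in the HFC pigs and COL1A2, a chain of type I collagen, was at such a p (0.89). COL1A1 and COL3A1 of this list were at 0.36 and 0.17 (unadjusted p = 0.308 and 0.591, edgeR). Over all genes tested, 11.4% had unadjusted p ≤ 0.05, 7.03% with higher and 4.41% with lower expression in the HFC group. Among 18 endocrine markers, whose median log2 fold change was -0.04, prolactin (PRL) was higher in the HFC pigs (1.27). POMC, the precursor of corticotropin (-1.23), CGA, the shared subunit of the glycoprotein hormones (-0.56), TBX19, the corticotroph transcription factor (-0.53), and PCSK2, a prohormone convertase (-1.29), were lower at unadjusted p ≤ 0.05. None of these passed an adjusted p of 0.05 (edgeR with Benjamini-Hochberg adjustment).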
